A study of Homo sapiens with 12 samples.

Results

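The doxycycline step under interferon gamma (IFNγ) was measured in 6 of the 12 RNA-sequencing libraries of the series, as the 3 libraries with doxycycline and IFNγ (DI) against the 3 with IFNγ alone (I). All libraries came from a clonal line of SK-N-DZ, a human neuroblastoma cell line with amplified MYCN and intact ARID1A, that carries a doxycycline-inducible short hairpin RNA against ARID1A from a lentiviral vector kept under puromycin selection. Group I had IFNγ for 24 h and no doxycycline, and its genotype is given in the labels as WT. Group DI had 4 days of doxycycline with IFNγ for 24 h, and its genotype is given as shARID1A. The 6 other libraries were untreated cells (C) and cells with doxycycline alone (D), again 3 each, and are used here as the same doxycycline step without IFNγ. The comparison asks what switching on the hairpin changes in cells that are answering IFNγ. Every library, control or not, carries the hairpin construct, and none had doxycycline without a hairpin, so the drug, the hairpin and the loss of ARID1A cannot be told apart. The line is 1 clone. Nothing says that replicates came from separate cultures, so p-values measure the spread between these samples, which may be technical.

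IFNγ binds a receptor that signals through JAK kinases to GAS elements in promoters and raises genes such as IRF1. IRF1 and related factors then bind interferon-stimulated response elements (ISRE) and raise antiviral, guanylate-binding and antigen presentation genes. ARID1A is the DNA-binding subunit of BAF, a SWI/SNF complex that moves nucleosomes. In neuroblastoma, ARID1A lies in the part of chromosome arm 1p that is often lost. A short hairpin RNA is cut into a small RNA that guides Argonaute to an mRNA. Besides the intended target, such small RNAs can lower mRNAs whose 3′ UTR pairs with their first bases, the seed.

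Levels are in CPM, reads per gene scaled to the library's total count and corrected for composition. Differences are log2 fold changes of DI against I from edgeR's quasi-likelihood test, with the standard error (SE). A gene is said to have risen or fallen where its p, adjusted over all tested genes, is under 0.05. Because libraries with the same replicate number also varied together, the value with the replicate number as a block is given wherever it changes a call. Totals were 19198225 to 21096267 counts in I and 19033653 to 21790869 in DI, so that 3 counts, taken as the detection floor, equal 0.135 to 0.164 CPM. Floors cover counting error only. The neuroblastoma identity of the cells was plain: the 10 adrenergic markers summed to 4726.3 to 5697.1 CPM in I and 4300.1 to 5642.5 CPM in DI. Such a sum hides single markers: 7 of the 10 were lower in DI, and 0 fell by the test. Their lowest log2 fold change was −3.85, which was also the lowest value over all tested genes. The leukocyte markers summed to at most 0.991 CPM, with CD3E at or under the floor in all 6 libraries. The 4 fibroblast markers summed to 64.8 to 107.0 CPM in I and 45.0 to 84.9 CPM in DI. Of these 4, PDGFRB alone stood at 54.6, 81.6 and 59.6 CPM in I. The line is clonal, so the sum is not read as a count of fibroblasts. In bulk samples, fewer cells of a type and less RNA per cell cannot be told apart.

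ARID1A itself (chr1:26693236-26782110, plus strand, GRCh38) stood at 192, 203 and 194 CPM in I and at 151, 133 and 148 CPM in DI, in the order of replicates 1, 2 and 3. Every DI library lay below every I library, and the DI mean was 73.5% of the I mean. The log2 fold change was −0.44 (SE 0.11), which missed the threshold without the block (edgeR adjusted p = 0.115) and passed it with the block (edgeR adjusted p = 0.0111). With the block fitted to the 6 I and DI libraries alone it missed again (edgeR adjusted p = 0.0593). An exact permutation test of the CPM, two-sided, gave p = 0.1, the smallest that 3 against 3 allows. Without IFNγ, C stood at 197, 186 and 165 CPM and D at 197, 159 and 158 CPM, and those groups overlapped (log2 fold change −0.09, edgeR adjusted p = 0.788). The interaction, which tests whether the doxycycline step differs with and without IFNγ, had an unadjusted p of 0.0437 for ARID1A and did not pass adjustment.

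Of 15828 genes tested, 106 (0.670%) changed between DI and I. Of these, 90 (0.569%) fell and 16 (0.101%) rose. With the replicate block 1658 genes (10.5%) passed, 1048 lower (6.62%) and 610 higher (3.85%), and all 106 were among them. DESeq2 called 452, and a model of the 6 I and DI libraries alone called 0 (1508 at an unadjusted p under 0.05), with 352 once the block was added. Leaving out 1 library took the count to 35 to 60 where that was C replicate 1 or 2, any I library or DI replicate 1 or 3. The ranges of DI and I did not overlap for 2624 genes (16.6%; 8.41% with DI lower and 8.17% with DI higher), the 106 included. The median log2 fold change was −0.90 among the genes that fell and 1.00 among those that rose. The 106 genes were 99 protein-coding genes (86 lower and 13 higher), 3 mitochondrial tRNAs, 3 noncoding transcripts or pseudogenes that rose and 1 pseudogene that fell.

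The same step without IFNγ was measured in the C and D libraries, which also enter the estimate of spread behind the DI against I test. D against C called 194 genes (1.23%; 0.733% lower and 0.493% higher), and 103 of the 106 genes had the same sign there. Both comparisons called 88 genes, which were 83.0% of the 106 and 45.4% of the 194. Of the 18 genes called with IFNγ and not without it, 5 were interferon genes (IFI27, IFIT2, IFIT3, DDX60 and IL18BP), and the others included TYK2, NR2F2, MALAT1, SLC16A9 and TRAPPC5. No gene passed the edgeR test of the interaction after adjustment (99 genes, 0.625%, had an unadjusted p under 0.05, and DESeq2 called 1), so none of the 18 is shown to change only under IFNγ. With a block of the replicate number within each doxycycline arm, 4 genes passed the interaction, among them IL18BP.

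**Figure D1:**
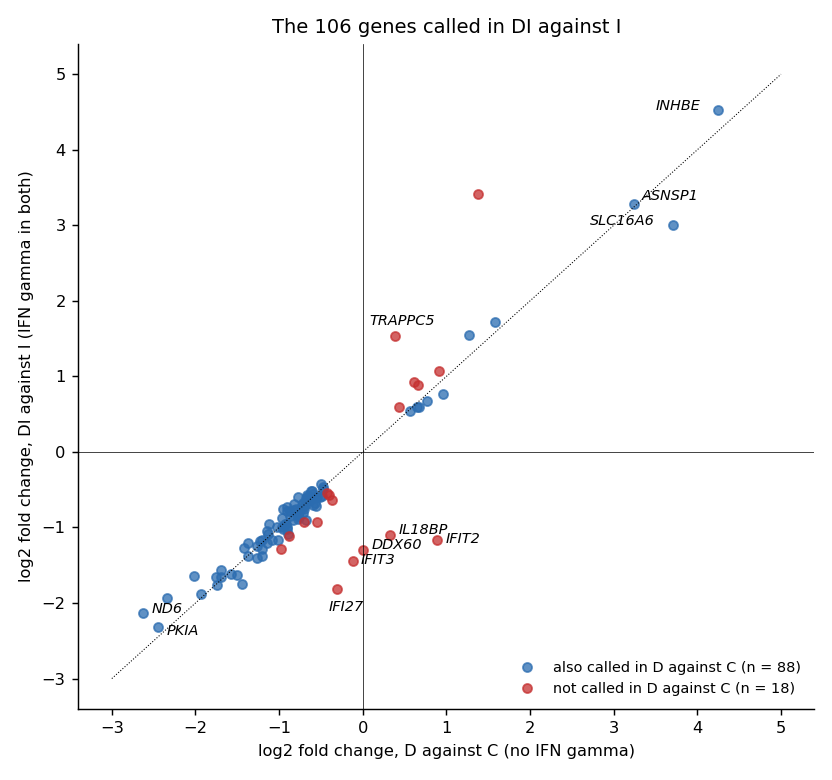
Log2 fold change of the 106 genes called in DI against I (vertical axis) plotted against their log2 fold change in D against C (horizontal axis), with 1 point a gene, blue where D against C was also called (88 genes) and red where it was not (18 genes). The dotted line marks equal values. Most points lie along it, and IFI27, IFIT3, DDX60, IL18BP and IFIT2 lie below it near or right of 0 on the horizontal axis; IFIT3 and DDX60 had 0 to 2 counts in every C and D library, so their horizontal values carry little.

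Most of the genes that fell shared a short sequence. Counting every 7-letter word in the longest annotated 3′ UTR of each gene (GENCODE 29), the word ACTCATT had the largest excess among the genes that fell, out of all 16384 words. It was chosen after the values were seen, and its share is a description with no test. It was present in the 3′ UTR of 51 of 83 genes that fell (61.4%), against 1823 of 13438 tested genes (13.6%) and 0 of 13 that rose. The word followed by A was held by 30.1% of the genes that fell and 3.02% of all. In coding sequence the shares were 7.23% and 6.41%. The genes that fell had longer 3′ UTRs, with a median of 2097 bases against 1379. Examples of the 3′ UTR sites are shown because most of the fallen genes carry one, with the word in capitals and 8 bases to each side, 5′ to 3′ on the transcript's strand, GRCh38. ARID1A holds no copy in its 3′ UTR but 1 in its coding sequence, at base 6803 of 6858, which is shown first. MOSPD3, MFSD6 and ARPP19 were chosen for display after their values were seen.
ARID1A coding sequence (chr1:26780693-26780715, plus strand): gttgatgaACTCATTggtttcac
MOSPD3 3′ UTR (chr7:100615327-100615349, plus strand): ggatttgtACTCATTttccaagt
MFSD6 3′ UTR, first site (chr2:190500339-190500361, plus strand): atatctaaACTCATTaacatgga
MFSD6 3′ UTR, second site (chr2:190501821-190501843, plus strand): aaattatgACTCATTttaagtga
ARPP19 3′ UTR, first site (chr15:52549827-52549849, minus strand): aagtatatACTCATTatagaatc
ARPP19 3′ UTR, second site (chr15:52547867-52547889, minus strand): ttgatggcACTCATTaaattgta
CNR1 3′ UTR, first site (chr6:88141174-88141196, minus strand): atgaatatACTCATTagaattac
CNR1 3′ UTR, second site (chr6:88141145-88141167, minus strand): ttaatatcACTCATTaattaacc
GCH1 3′ UTR (chr14:54842311-54842333, minus strand): ctttatgaACTCATTtatattcc
GNPDA1 3′ UTR (chr5:142001232-142001254, minus strand): ttttacatACTCATTagtaagtg
BUB1B 3′ UTR (chr15:40220980-40221002, plus strand): ctaaacagACTCATTacaaatgg

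The sources used here name catalogue clones for the study's hairpins but give no hairpin sequence, so the word was not compared with them, and whether these genes pair with the hairpin was not tested. The median log2 fold change in DI against I was −0.01 over the 11615 genes with no copy, −0.07 over the 1490 with 1 copy and −0.10 over the 333 with 2 or more. Of these genes, 0.276%, 2.42% and 4.5% fell. These medians include the called genes in which the word was found. Without the called genes the medians were −0.0067, −0.06 and −0.08, and without the genes called with the block as well −0.0014, −0.03 and −0.04, where D against C had −6e-05, −0.0042 and 0.0075. Taken library by library against the mean of I, the genes with the word had a median of −0.08 in DI replicate 1, −0.09 in replicate 2 and −0.09 in replicate 3, while those without it had −0.0036, −0.019 and −0.0049. All 3 DI libraries lay lower for genes with the word, but these medians again include the called genes in which it was found. Without IFNγ the medians of D against C were −0.0068, −0.04 and −0.05 for 0, 1 and 2 or more copies, and the word also ranked first among genes that fell there (55 of 104, 52.9%). With genes divided into 4 equal groups by 3′ UTR length, those with the word had the lower median in each: −0.15 against −0.04 in the shortest group, −0.20 against −0.02 and −0.13 against 0.01 in the middle ones, and −0.04 against 0.04 in the longest. The length groups keep the called genes too, so no conclusion about 3′ UTR length is drawn from them. With the replicate block the share among lower genes was 27.6% (270 of 980), and the word ranked first again.

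**Figure D2:**
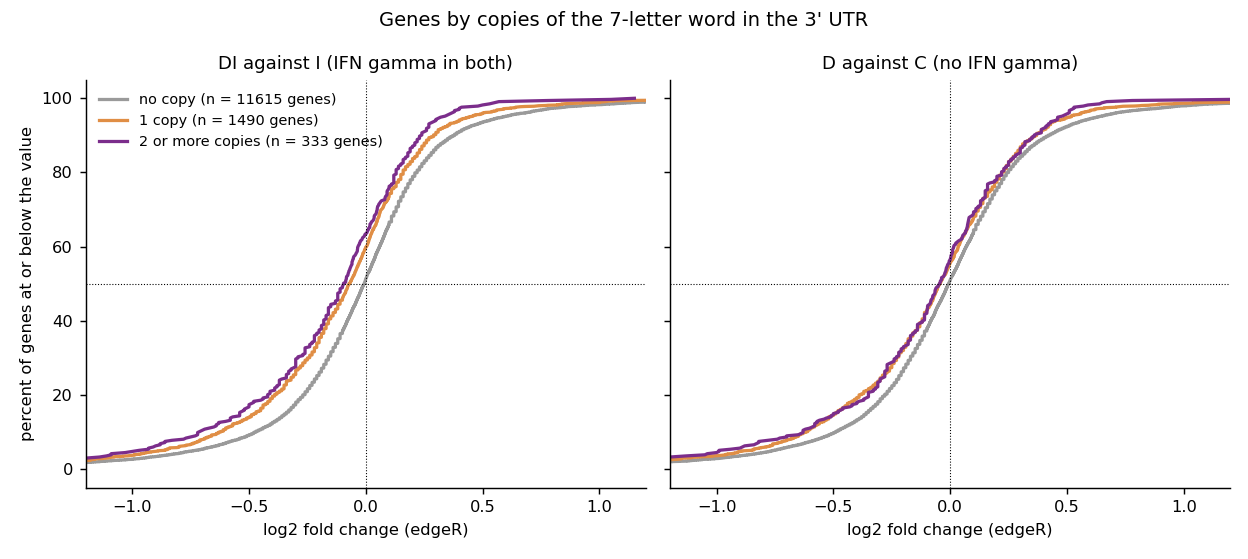
Cumulative curves of the log2 fold change (horizontal axis) as percent of genes at or below each value (vertical axis), for DI against I (left) and D against C (right), with genes split by copies of ACTCATT in the 3′ UTR. The curves for 1 copy (1490 genes) and 2 or more copies (333 genes) lie to the left of the curve for no copy (11615 genes) over most of the range in both panels.

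The gene with the largest fall was PKIA, an inhibitor of protein kinase A. It stood at 70.9, 61.1 and 61.8 CPM in I and at 13.6, 15.5 and 9.82 CPM in DI, a log2 fold change of −2.32 (SE 0.18, edgeR adjusted p = 0.0011). The groups lay far apart, the highest DI library being below the lowest I library by a wide margin, and D and C were apart in the same way (log2 fold change −2.45). PKIA has 2 copies of the word in its 3′ UTR.

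BEX1, a small neuronal adaptor protein, has no copy of the word and fell as well. It stood at 47.7, 46.5 and 42.9 CPM in I and 18.4, 11.8 and 13.2 CPM in DI (log2 fold change −1.66, SE 0.18, edgeR adjusted p = 0.00423). GCH1, the first enzyme of tetrahydrobiopterin synthesis, went from 49.4, 59.5 and 55.2 CPM in I to 17.2, 18 and 17.8 CPM in DI (log2 fold change −1.63, edgeR adjusted p = 0.00672). Untreated cells had 18.6, 17.4 and 23.9 CPM of GCH1, and D had 5.1, 6.42 and 9.73 CPM. GCH1 was thus higher with IFNγ than without it under doxycycline as well. Its interaction had an unadjusted p of 0.668 by the edgeR test. CNR1, the cannabinoid receptor of neurons, fell to 29.7% of its I mean (edgeR adjusted p = 0.016; 0.0602 to 0.0821 without I replicate 1 or 2 or DI replicate 3). GNPDA1, which turns glucosamine-6-phosphate into fructose-6-phosphate, fell to 32.8% (edgeR adjusted p = 0.00521).

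Other called genes had smaller falls. ARPP19, an inhibitor of the phosphatase PP2A in mitosis, stood at 439, 453 and 451 CPM in I and 263, 256 and 271 CPM in DI, and fell to 58.8% (SE 0.08 on the log2 scale, edgeR adjusted p = 0.00423). MOSPD3 went from 39.4, 41.6 and 46.9 CPM to 20.7, 17.3 and 18.8 CPM, and MFSD6 from 43.9, 54.5 and 49.4 CPM to 18.4, 17.6 and 20.8 CPM (edgeR adjusted p = 0.00268 and 0.00422). No range overlapped in these 3 genes. DNAJB9, an endoplasmic reticulum co-chaperone without the word, fell to 49.3% (edgeR adjusted p = 0.00484), whereas the endoplasmic reticulum list of 17 genes had a median of −0.06 (−0.16 to 0.05 with 1 library left out) and no other member called. HERPUD1 of that list was at 181% of I, called only with the block (edgeR adjusted p = 0.278 without it and 0.0348 with it).

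**Figure D3:**
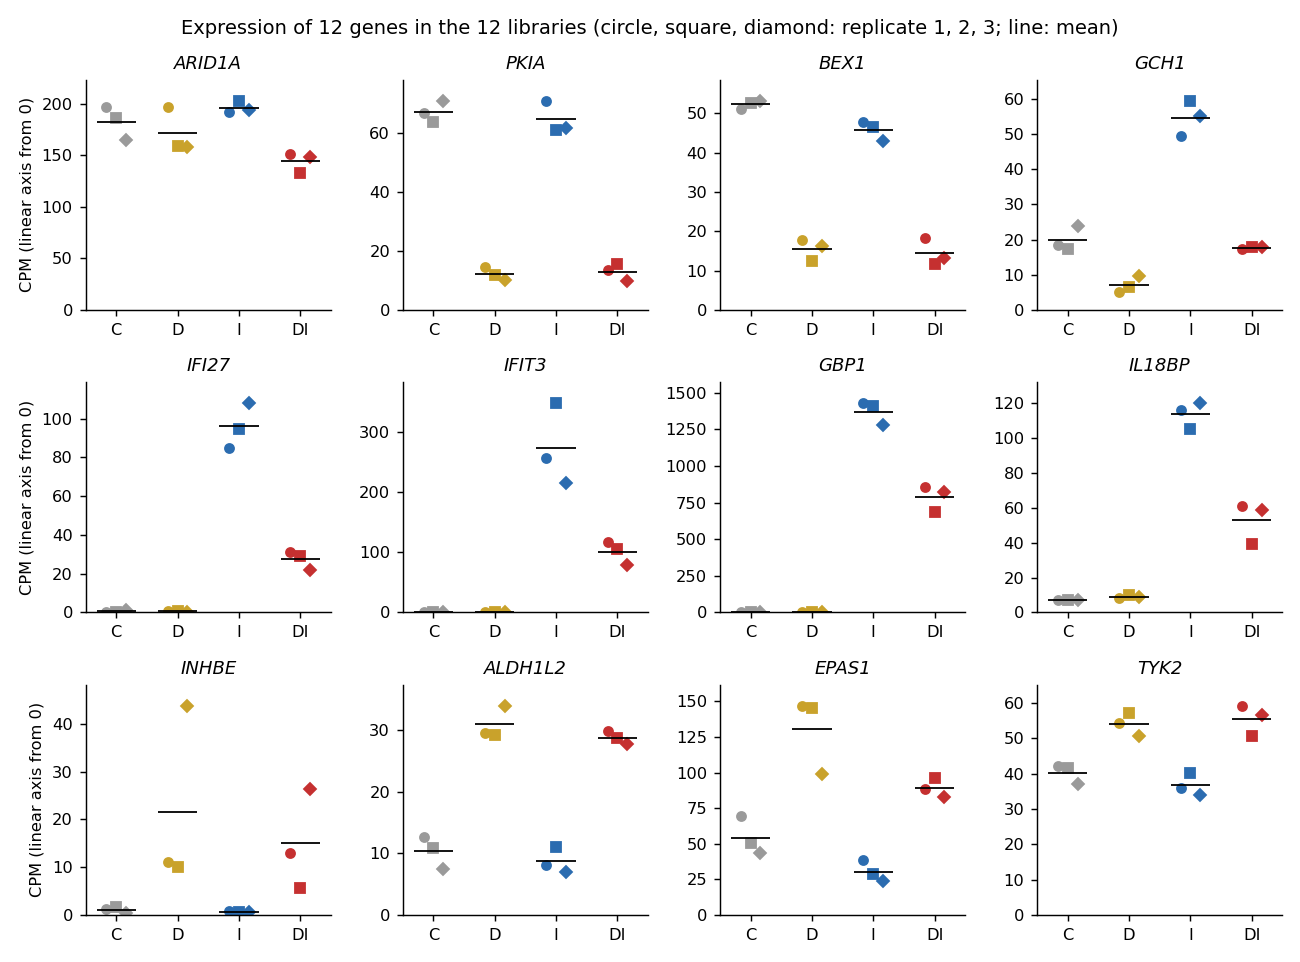
CPM (linear vertical axis from 0) of 12 genes in all 12 libraries, with groups C, D, I and DI on the horizontal axis, circle, square and diamond for replicates 1, 2 and 3, and a line for the mean. PKIA, BEX1 and GCH1 are lower in both groups with doxycycline, IFI27, IFIT3 and GBP1 are near 0 without IFNγ and lower in DI than in I, and INHBE, ALDH1L2, EPAS1 and TYK2 are higher in both groups with doxycycline.

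Interferon genes were mostly lower in DI than in I, and few passed the test one by one. IFNγ raised 354 tested genes by 1 or more on the log2 scale when the 6 libraries with it, I and DI alike, were set against the 6 without it, at an adjusted p below 0.05. Of these, 282 were lower in DI, with a median log2 fold change of −0.36 against −0.0068 over all tested genes. Of the 354, 6 fell and 0 rose, where 0.569% and 0.101% of all tested genes did. With the block 74 were called lower and 3 higher, where 6.62% and 3.85% of all tested genes were. In the 13 lists of interferon genes written from general knowledge, 119 of 139 tested members were lower (median −0.47), 5 fell and 1 rose, and 38 were lower and 2 higher with the block. Pair by pair, the median of the 139 was −0.36, −0.46 and −0.37 for replicates 1, 2 and 3. The same members had a median of −0.04 in D against C, where many are near the floor and 74 of 139 were lower. In D against C 3 of them were called lower and 1 higher, where 0.733% and 0.493% of all tested genes were. A change confined to IFNγ is not shown for the lists. Many members are near the floor without IFNγ, and no gene passed the edgeR interaction without a block after adjustment. Of the 5 list members that fell, none has the word in its 3′ UTR, but 1 of the 6 interferon-raised genes that fell does. Of the interferon-raised genes with an annotated 3′ UTR, 40 of 314 (12.7%) have it, close to the 13.6% of all genes. Their median was −0.57 with the word and −0.35 without. With the block, 13 of the 40 with the word and 56 of the 274 without it were called lower. Among the genes described below, GBP1, GBP4, CX3CL1 and SAMHD1 have the word.

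The small interferon-induced genes, whose products include mitochondrial and membrane proteins of the early antiviral state, had 13 of 14 tested members lower. Their median was −0.87 (−0.40 without I replicate 2). Of the 14, 1 fell and 8 were called lower with the block, where 0.569% and 6.62% of all tested genes were. IFI27 stood at 85.0, 94.9 and 108 CPM in I and 31.3, 28.9 and 22 CPM in DI, and fell to 28.5% (log2 fold change −1.81, SE 0.30, edgeR adjusted p = 0.0239). The groups were far apart, and without IFNγ it was at or below 1.18 CPM. The call was lost without any 1 of the 6 I and DI libraries (edgeR adjusted p = 0.057 to 0.125). IFI6 was at 32.4% of its I mean, called only with the block (edgeR adjusted p = 0.0936 without it and 0.00216 with it).

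Among antiviral effectors, 22 of 27 tested members were lower (median −0.63, with −0.38 and −0.40 without I replicate 2 or DI replicate 3). Of the 27, 2 fell and 10 were called lower with the block, where 0.569% and 6.62% of all tested genes were. The 2 that fell were IFIT2 and IFIT3, which bind foreign RNA and work as partners. IFIT3 stood at 257, 348 and 215 CPM in I and 117, 106 and 78.3 CPM in DI (log2 fold change −1.44, SE 0.24, edgeR adjusted p = 0.0247), and IFIT2 at 49.3, 68.8 and 47.3 CPM in I and 27.2, 26.4 and 20.5 CPM in DI (log2 fold change −1.16, edgeR adjusted p = 0.033). For both genes every DI library lay below every I library. IFIT3 lost its call without I replicate 1 or 2 or any DI library (edgeR adjusted p = 0.057 to 0.109), and IFIT2 without C replicate 1 or 2 or any I or DI library (edgeR adjusted p = 0.0588 to 0.144). SAMHD1, which cuts the deoxynucleotide pool, was at 63.3% of I, and SAMD9L, which limits translation, at 33.7%, both called only with the block (edgeR adjusted p = 0.0809 and 0.0528 without it, 0.00497 and 0.00183 with it).

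DDX60, a helicase of the RNA sensing list, had 0 counts in all C and D libraries. In I it stood at 62.3, 61.2 and 70.6 CPM and in DI at 24.1, 23.5 and 31.0 CPM (log2 fold change −1.30, SE 0.16, edgeR adjusted p = 0.0246). IL18BP, the secreted binding protein of interleukin 18, went from 116, 105 and 120 CPM in I to 61.2, 39.0 and 58.6 CPM in DI (log2 fold change −1.10, edgeR adjusted p = 0.0107). The ranges of neither gene overlapped. DDX60 lost its call without any I library or DI replicate 1 or 2 (edgeR adjusted p = 0.0704 to 0.125), and IL18BP without I replicate 1 or 3 (edgeR adjusted p = 0.051 and 0.061). Outside IFNγ, IL18BP stood at 7.13, 7.25 and 6.98 CPM in C and 8.49, 9.83 and 8.57 CPM in D (edgeR adjusted p = 0.401).

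All 6 tested guanylate-binding proteins, GTPases that attack vacuoles of pathogens, were lower (median −0.80), with 0 called. With the block 4 were called lower, where 6.62% of all tested genes were. GBP1, the most abundant, stood at 1429, 1408 and 1279 CPM in I and 859, 685 and 825 CPM in DI, 57.5% of the I mean (edgeR adjusted p = 0.148, and 0.00732 with the block). GBP4 was at 57.7% (edgeR adjusted p = 0.257, and 0.0181 with the block). The groups did not overlap for GBP1 and GBP4. Guanylate-binding and class I genes have close relatives, between which the authors' counting could split reads.

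Other interferon lists ran the same way by count. For scale, 0.569% of all tested genes fell and 6.62% were called lower with the block. All 7 ISG15 conjugation genes were lower (median −0.59, 3 called with the block), among them ISG15, the ubiquitin-like modifier, at 294, 267 and 227 CPM in I and 177, 135 and 134 CPM in DI (edgeR adjusted p = 0.087, and 0.00104 with the block). All 10 apolipoprotein L and PARP genes were lower (median −0.60, 3 called with the block), and APOL4 was at 47.0% of I (edgeR adjusted p = 0.268, and 0.0037 with the block). Of 15 checkpoint, complement and IDO1 genes 14 were lower (median −0.37, 1 fell and 4 were called lower with the block). That median was −0.69 and −0.57 without I replicate 3 or DI replicate 1, and −0.56 without the filter on low counts or with DESeq2. IDO1, the tryptophan-degrading enzyme that IFNγ induces, stood at 62.2, 105 and 43.7 CPM in I and 35.1, 27.1 and 7.88 CPM in DI, with 0 counts outside IFNγ (edgeR adjusted p = 0.326, and 0.018 with the block). CX3CL1, a chemokine tethered to the membrane, stood at 10.3, 16.3 and 12.3 CPM in I and 3.39, 3.38 and 3.15 CPM in DI (edgeR adjusted p = 0.225, and 0.0241 with the block), and CXCL10, the chemokine of chief interest in the study, had 0 to 2 counts in every library and could not be tested.

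Antigen presentation lists had medians nearer 0. Of 14 genes for making and loading peptides 12 were lower (median −0.24), with 0 called. With the block 3 were called lower, where 6.62% of all tested genes were. PSMB8, an immunoproteasome subunit, stood at 138, 125 and 215 CPM in I and 70.2, 66 and 110 CPM in DI (51.6% of I, edgeR adjusted p = 0.232, and 0.00332 with the block). TAP1, the peptide transporter, stood at 1242, 1285 and 1464 CPM in I and 895, 939 and 956 CPM in DI (edgeR adjusted p = 0.63, and 0.189 with the block), so that its ranges did not overlap but no test called it. Of 7 class I chains 6 were lower, with a median of −0.08 and no call in either fit. The direction of that median did not hold: it was 0.015 under scaling by library size alone, 0.0042 and 0.09 without I replicate 2 or 3, and −0.33 and −0.28 without I replicate 1 or DI replicate 3. B2M, the shared light chain, was at 79.2% of I, with overlapping ranges (edgeR adjusted p = 0.39).

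Of the 16 tested receptor, JAK-STAT and SOCS genes upstream of these, 1 rose and 0 fell, where 0.101% and 0.569% of all tested genes did. With the block 2 of the 16 were called higher and 0 lower, where 3.85% and 6.62% of all tested genes were. IRF1 stood at 381, 409 and 442 CPM in I and 376, 342 and 383 CPM in DI, with overlapping ranges (log2 fold change −0.16, SE 0.13, edgeR adjusted p = 0.694). IRF1 was not called with the block and has no copy of the word in its 3′ UTR. TYK2, a JAK kinase of the type I interferon receptor, rose from 36.0, 40.3 and 33.9 CPM in I to 59.3, 50.7 and 56.7 CPM in DI (log2 fold change 0.60, SE 0.11, edgeR adjusted p = 0.0341; 0.0504 to 0.145 without C replicate 1 or 2, D replicate 1 or 3, any I library or DI replicate 1 or 3). SOCS2, a feedback inhibitor of JAK-STAT signaling, was higher at low levels, 4.82, 4.61 and 8.24 CPM in DI against 3.46, 1.85 and 3.88 CPM in I, called only with the block (edgeR adjusted p = 0.305 without it and 0.0107 with it). Of the 16 tested receptor, JAK-STAT and SOCS genes 11 were lower (median −0.24; −0.076, −0.12 and −0.15 without I replicate 1, 2 or 3 and −0.011 without DI replicate 3). Of the 7 interferon regulatory factors 6 were lower (median −0.20; −0.37 without the filter on low counts) with no call in either fit.

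Promoters were searched from 250 bases before to 50 after the start (RefSeq, GRCh38.p14), on both strands, for an ISRE-like motif, which is GAAA followed by NN and a further GAAA, and a GAS motif, TTCNNNGAA, where N is any base. The ISRE-like motif was present in 2.67% of all 11951 promoters, 25.1% of those of interferon-raised genes, 38.9% of those called lower in either fit (21 of 54) and 21.5% of those called in neither (44 of 205). The GAS motif was present in 6.32%, 17.0%, 14.8% and 17.6% of the same groups. These matches are letters in a window and not measured binding. Among all genes that fell, interferon-raised or not, 3 of 63 promoters (4.76%) had the ISRE-like motif. Windows of these 3 are shown with an ISRE-like match in capitals, on the gene's strand.
IFI27 (chr14:94110618-94110647, plus strand): atgtctgcagTTTCGGTTTCctggaaaatg
IFIT3 (chr10:89327865-89327894, plus strand): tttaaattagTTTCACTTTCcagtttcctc
DDX60 (chr4:168318821-168318850, minus strand): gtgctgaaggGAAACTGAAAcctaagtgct

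**Figure D4:**
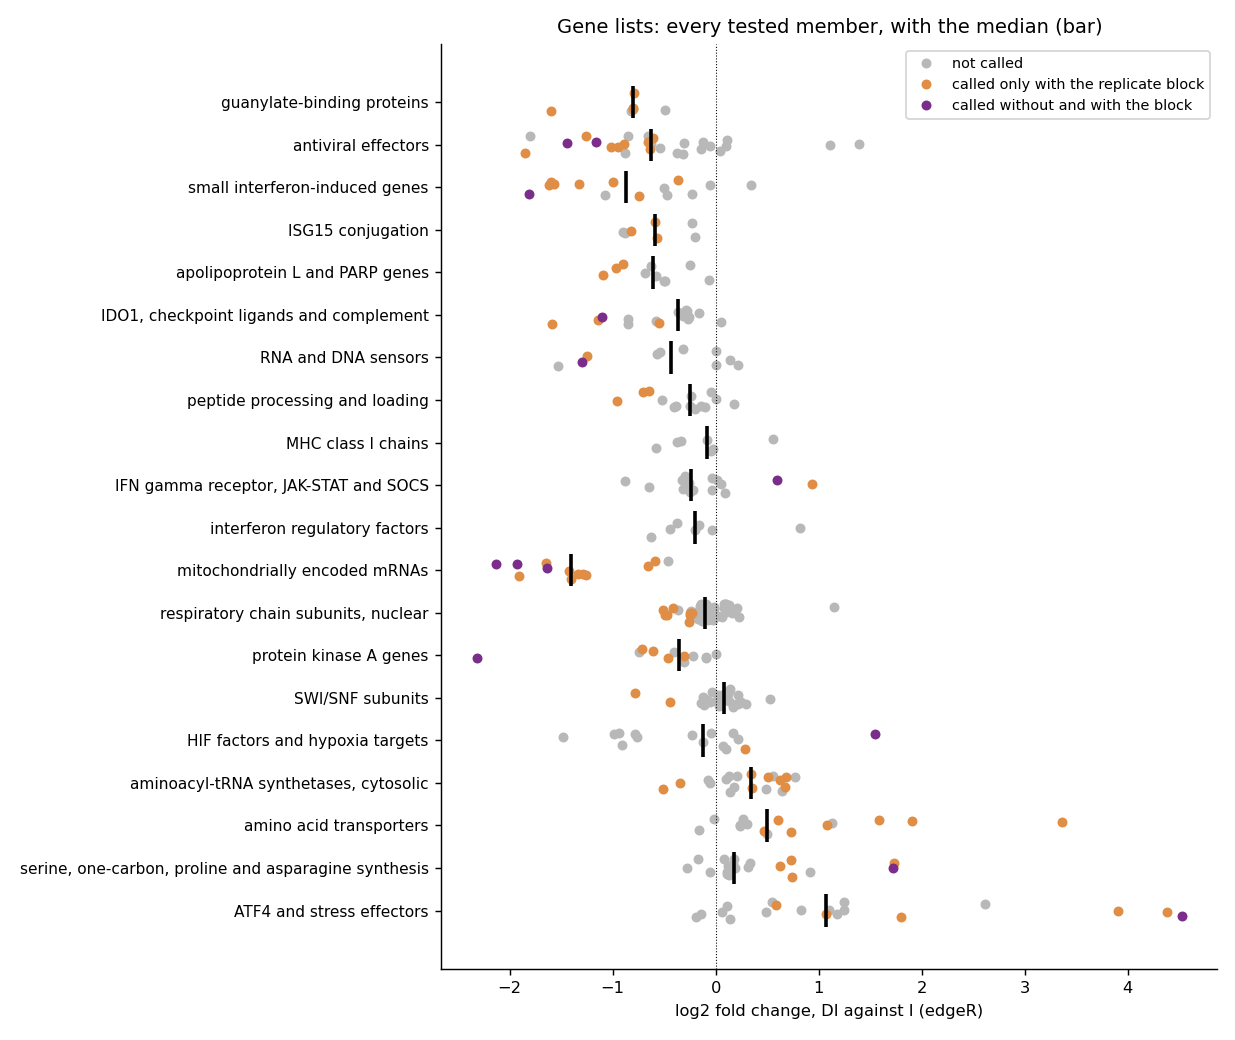
Log2 fold change of DI against I (horizontal axis) for every tested member of 20 gene lists (rows), with a black bar at each list's median, grey points for genes not called, orange for those called only with the replicate block and purple for those called without and with it. Guanylate-binding and other interferon lists and the mitochondrially encoded mRNAs lie left of 0, and the ATF4, transporter and tRNA synthetase lists lie mostly right of it.

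Mitochondrially encoded RNAs were lower in DI. The mitochondrial genome encodes 13 mRNAs of the respiratory chain, 2 ribosomal RNAs and the tRNAs, copied as long transcripts from each strand and then cut. All 13 mRNAs were lower, with a median log2 fold change of −1.40. Of the 13, 3 fell and 12 were called lower with the block, where 0.569% and 6.62% of all tested genes were. Their summed share of all counts was 2.90% to 4.42% in I and 0.768% to 2.58% in DI. The pair medians were −0.85, −1.85 and −2.01 for replicates 1, 2 and 3, so DI replicate 1 stood nearest to I, and without it the median was −2.19. Without IFNγ the median of D against C was −1.96, with 13 of 13 lower.

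ND6, a complex I subunit and the only mRNA encoded on the minus strand, stood at 799, 955 and 726 CPM in I and 284, 163 and 118 CPM in DI (log2 fold change −2.13, SE 0.26, edgeR adjusted p = 0.00497). ND4L fell to 26.3% and ND5 to 32.1% (edgeR adjusted p = 0.0354 and 0.0457), both also complex I subunits and both no longer called without any 1 library other than DI replicate 1 (edgeR adjusted p = 0.053 to 0.15). COX1, the catalytic subunit of complex IV, stood at 11716.6, 11241.3 and 8278.4 CPM in I and 5573.1, 2768.5 and 1634.7 CPM in DI (edgeR adjusted p = 0.0815, and 0.000996 with the block). The 4 ranges did not overlap. ATP6, of ATP synthase, was at 72.5% with overlapping ranges and was the 1 mRNA not called with the block (edgeR adjusted p = 0.0775 with it).

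Other mitochondrial RNAs did not all go the same way. The tRNAs TRNN, TRNC and TRNP, encoded on the minus strand, fell, TRNN from 47.3, 71.7 and 73.4 CPM in I to 17.5, 14.8 and 24.4 CPM in DI (edgeR adjusted p = 0.00672). TRNC lost its call without I replicate 2 or 3 or DI replicate 1 or 3 (edgeR adjusted p = 0.0529 to 0.0936), and TRNP without C replicate 1, I replicate 2 or 3 or DI replicate 2 or 3 (edgeR adjusted p = 0.0544 to 0.107). The ribosomal RNAs, which lie at the start of the plus-strand transcript, were not called: RNR1 was at 139% and RNR2 at 83.1% of I. TRNR was higher, 1.73, 0.927 and 1.57 CPM in I and 5.03, 3.23 and 4.64 CPM in DI, called only with the block (edgeR adjusted p = 0.15 without it and 0.00823 with it). Short RNAs such as tRNAs are poorly captured by standard libraries, and how RNA was selected is not given in the sources used here. Of 52 nuclear-encoded subunits of the respiratory chain 40 were lower, with a median of −0.10 (above 0 without I replicate 3 or DI replicate 2, and −0.21 and −0.19 without I replicate 2 or DI replicate 1). With the block 8 of the 52 were called lower, where 6.62% of all genes were, among them COX7C, a complex IV subunit, at 71.0% of I (edgeR adjusted p = 0.0554, and 0.00211 with the block). The 29 genes of mitochondrial transcription and replication had a median of −0.05 (−0.11 to 0.06 with 1 library left out).

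**Figure D5:**
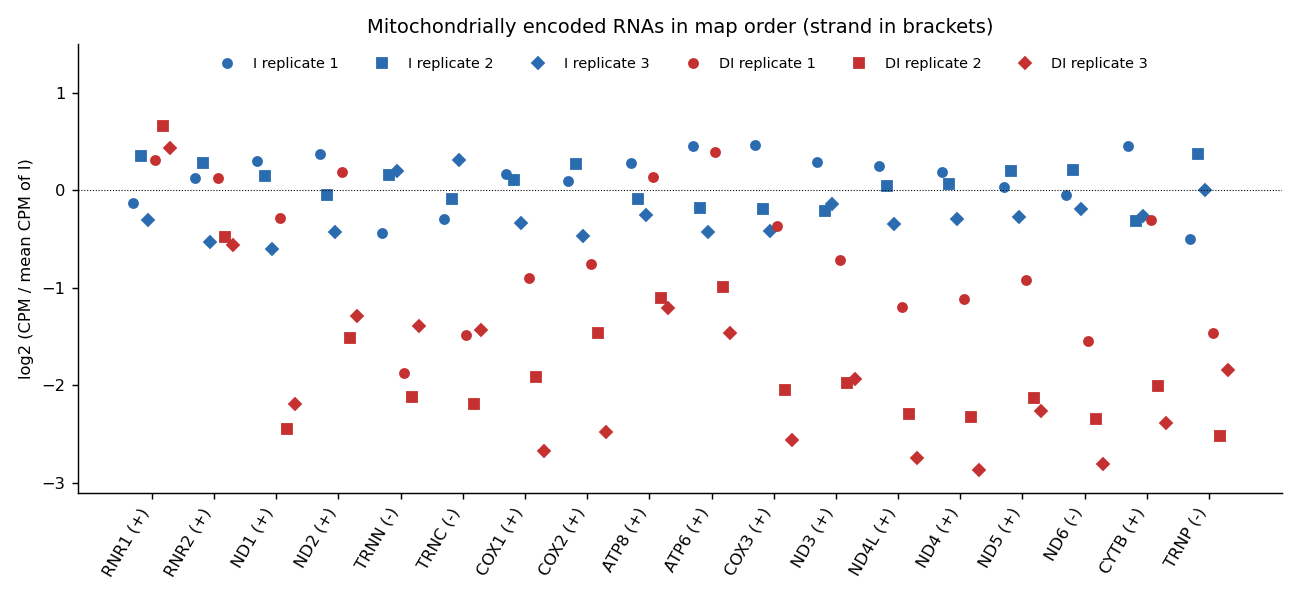
Log2 of CPM over the mean CPM of I (vertical axis) for 18 mitochondrially encoded RNAs in map order (horizontal axis, strand in brackets), with I libraries in blue and DI libraries in red and circle, square and diamond for replicates 1, 2 and 3. The DI points lie mostly below the I points from ND1 onward, DI replicate 1 lies closest to I for most mRNAs, and the groups overlap for RNR1 and RNR2.

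Genes of the amino acid response were higher in DI. ATF4 is a transcription factor whose translation increases when the kinases of the integrated stress response phosphorylate eIF2α, as happens when amino acids are short, and it raises genes for amino acid synthesis, import and tRNA charging. Of the 72 tested genes in 4 such lists 61 were higher (median 0.48 against −0.0068 over all genes), 2 rose and 0 fell, and with the block 24 were called higher and 2 lower, where 3.85% and 6.62% of all genes were. Pair medians were 0.44, 0.15 and 0.65, and the median in D against C was 0.52.

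The ATF4 and stress effector list had 17 of 19 members higher, with a median of 1.07 (0.56 without DI replicate 3). Of the 19, 1 rose and 6 were called higher with the block, where 0.101% and 3.85% of all tested genes were. INHBE, a secreted activin subunit raised by ATF4, stood at 0.742, 0.600 and 0.576 CPM in I and 13.0, 5.54 and 26.4 CPM in DI (log2 fold change 4.53, SE 0.80, edgeR adjusted p = 0.0326). Its DI libraries spread widely, replicate 2 lowest and replicate 3 highest, and the call was lost without C replicate 1 or 2, any I library or DI replicate 1 or 3 (edgeR adjusted p = 0.0519 to 0.157). ADM2, an adrenomedullin-like peptide, and CHAC1, which degrades glutathione, had the same order of DI libraries at 1.38 to 9.32 and 9.49 to 43.0 CPM, and were called only with the block (edgeR adjusted p = 0.0647 and 0.0523 without it, 0.00483 and 0.00456 with it). ATF4 mRNA stood at 258, 320 and 205 CPM in I and 365, 404 and 409 CPM in DI (edgeR adjusted p = 0.196, and 0.0369 with the block).

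Synthesis genes for serine, one-carbon units, proline and asparagine were higher in 16 of 19 cases, with a median of 0.18 (0.32 without DI replicate 2). Of the 19, 1 rose and 5 were called higher with the block, where 0.101% and 3.85% of all tested genes were. ALDH1L2, the mitochondrial enzyme of folate metabolism that makes NADPH, was the 1 that rose, with 8.16, 11.1 and 7.02 CPM in I and 29.8, 28.8 and 27.7 CPM in DI (log2 fold change 1.72, SE 0.21, edgeR adjusted p = 0.00497). ASNS, asparagine synthetase, stood at 1.63, 1.8 and 1.62 CPM in I and 5.03, 3.85 and 7.97 CPM in DI (edgeR adjusted p = 0.0924, and 0.0129 with the block). The pseudogene ASNSP1 rose from 0.742, 0.382 and 0.210 to 4.36, 2.26 and 6.53 CPM (edgeR adjusted p = 0.0493, and 0.054 to 0.196 without any 1 library but D replicate 3 or DI replicate 2), and reads of the gene and the pseudogene may not be separable.

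Of 15 amino acid transporters 13 were higher (median 0.50), with 0 called. With the block 7 were called higher, where 3.85% of all tested genes were. SLC3A2, the heavy chain of the cystine and large neutral amino acid carriers, was at 211% of I (edgeR adjusted p = 0.156, and 0.0306 with the block), and SLC7A1, the cationic amino acid carrier, stood at 142, 174 and 160 CPM in I and 245, 219 and 327 CPM in DI (edgeR adjusted p = 0.116, and 0.009 with the block). Of 19 cytosolic tRNA synthetases 15 were higher (median 0.34, and 0.21 without DI replicate 1). With the block 6 were called higher and 2 lower, where 3.85% and 6.62% of all tested genes were. AARS1, alanyl-tRNA synthetase, was at 160% and GARS1, glycyl-tRNA synthetase, at 154% of I, both called only with the block (edgeR adjusted p = 0.262 and 0.201 without it, 0.0332 and 0.0428 with it). By contrast, the kinases and phosphatases of the integrated stress response had a median of −0.03 (−0.07 to 0.02 with 1 library left out) and the 12 NRF2 and glutathione genes a median of 0.24 (0.036 to 0.41 with 1 library left out, lowest without DI replicate 3).

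A motif like the C/EBP-ATF response element (CARE), TGATGNAA, was present on either strand in 14 of 55 promoters of the 4 lists (25.5%), against 1.61% of all promoters, 3.25% of those called higher with the block and 0 of the 11 that rose. The 4 lists were written from general knowledge of this response, so their share describes the lists and not the change in DI. Promoter windows of the ASNS and CHAC1 genes, both higher in DI, are shown with the match in capitals.
ASNS (chr7:97872459-97872486, minus strand): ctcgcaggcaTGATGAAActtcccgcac
CHAC1 (chr15:40953252-40953279, plus strand): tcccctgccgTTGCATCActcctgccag

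Other genes that rose belonged to no list. CCAR1, a coactivator of apoptosis and cell cycle genes, rose from 136, 152 and 128 CPM in I to 224, 232 and 253 CPM in DI (log2 fold change 0.77, SE 0.09, edgeR adjusted p = 0.00484). PTGFRN, a membrane partner of tetraspanins, rose from 66.6, 66.6 and 60.5 CPM to 104, 102 and 105 CPM (edgeR adjusted p = 0.00484). Both were steady within each group. The monocarboxylate carriers SLC16A6 and SLC16A9 rose as well, to 815% and 210% of I (edgeR adjusted p = 0.0463 and 0.0493), SLC16A6 from a level of 0.262 to 0.792 CPM in I. The nuclear receptor NR2F2 rose to 184%, the nuclear noncoding RNA MALAT1 to 189% and TRAPPC5, of a vesicle tethering complex, to 291% of I (edgeR adjusted p = 0.0318, 0.0334 and 0.049). SLC16A9 and TRAPPC5 lost the call without any 1 of the 12 libraries, SLC16A6 without any 1 other than C replicate 3, MALAT1 without C replicate 2 or 3, D replicate 1, any I library or DI replicate 1 or 2, and NR2F2 without C replicate 2, I replicate 2 or 3 or DI replicate 1 or 3 (edgeR adjusted p = 0.0502 to 0.183).

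All 12 tested protein kinase A genes were lower by sign, with a median log2 fold change of −0.36, though AKAP12 was at 99.9% of I. Of the 12, 1 fell (PKIA) and 5 were called lower with the block, where 6.62% of all tested genes were. PRKAR1A, the regulatory subunit that holds the kinase inactive, stood at 231, 254 and 198 CPM in I and 152, 170 and 128 CPM in DI (edgeR adjusted p = 0.109, and 0.000796 with the block). AKAP1, which anchors the kinase at mitochondria and has the word in its 3′ UTR, was at 80.9% of I (edgeR adjusted p = 0.143, and 0.0212 with the block). Of the 12 genes 5 have the word, against 13.6% of all tested genes with a 3′ UTR. PKIA is among the fallen genes in which the word was found.

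The hypoxia list split between replicates. EPAS1, which encodes HIF-2α, rose from 38.8, 28.9 and 23.5 CPM in I to 88.7, 96.1 and 83.0 CPM in DI (log2 fold change 1.55, SE 0.23, edgeR adjusted p = 0.013; 0.07 and 0.0636 without I replicate 2 or 3). The targets did not follow in a uniform way. PGK1, a glycolytic enzyme, stood at 1658, 1841 and 2920 CPM in I and 600, 1986 and 827 CPM in DI, and LDHA, lactate dehydrogenase, at 2660, 2814 and 3664 CPM in I and 1060, 2829 and 1512 CPM in DI. Replicate 2 of DI was thus among the I libraries while replicates 1 and 3 lay below them. CA9, a carbonic anhydrase induced by hypoxia and named here after its values were seen, had 301, 582 and 695 counts in I and 1, 578 and 4 counts in DI, and 2, 297 and 2 counts in D. This split, chosen after the values were seen, was found in 9 of the 15 hypoxia genes (60%) and in 9.97% of all tested genes, and in D against C in 6 of 15 (40.0%) and 8.04%. The median of the list was −0.12 (−1.36 without DI replicate 2, and above 0 without I replicate 3 or DI replicate 1 or 3), and what set the replicates apart was not tested.

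Of 27 tested SWI/SNF subunits 19 were higher, with a median of 0.09 (0.047 without DI replicate 2 and 0.18 under scaling by library size alone) and 0 called. With the block ARID1A and ACTL6B were called lower, a share near the 6.62% of all tested genes. ACTL6B, the neuronal actin-like subunit, stood at 45.6, 66 and 60.9 CPM in I and 34.5, 34.6 and 31.5 CPM in DI, 58.3% of I (edgeR adjusted p = 0.0615, and 0.0032 with the block). SMARCA4, the ATPase, was at 113% of I, not called in either fit. EZH2, the methyltransferase that opposes SWI/SNF, was at 125% of I with ranges that did not overlap (edgeR adjusted p = 0.221, and 0.058 with the block).

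Lineage and growth genes showed no common shift. MYCN stood at 1030, 879 and 886 CPM in I and 1075, 772 and 895 CPM in DI, and its ranges overlapped (log2 fold change −0.03, SE 0.16, edgeR adjusted p = 0.976; it turned to 0.06 under scaling by library size alone). The 20 adrenergic genes had a median of −0.14 (−0.27 to −0.047 with 1 library left out) and the 17 tested mesenchymal genes 0.03 (−0.09 to 0.43). Single adrenergic genes ran from −3.85 to 0.41 and mesenchymal ones from −0.92 to 0.68, with 0 called without the block. Of the adrenergic genes, HAND2 was called lower and TBX2 higher with the block alone (70.2% and 133% of I, edgeR adjusted p = 0.0151 and 0.0439 with it, 0.678 and 0.481 without it). The 29 cell cycle genes had a median of −0.04 (−0.18 to 0.02 with 1 library left out, and 0.06 under scaling by library size alone). With the block 5 were called lower and 2 higher, where 6.62% and 3.85% of all tested genes were. Among those 7 were the cyclins CCNB2 and CCNE2, lower, and the replication factors CDC6 and MCM3, higher (edgeR adjusted p with the block 0.00581, 0.0217, 0.0126 and 0.0267; not called without it). BUB1B, a kinase of the spindle checkpoint that has the word, was the only one that fell, to 67.5% of I (edgeR adjusted p = 0.0336; 0.0507 to 0.14 without C replicate 1 or 2, D replicate 3 or any I or DI library). Of 73 cytosolic ribosomal protein genes 57 were lower, with a median of −0.10 (−0.057 without I replicate 3 and −0.012 under scaling by library size alone), 0 called and 12 called lower with the block, where 6.62% of all genes were. HPRT1, often used as a reference gene, was at 74.3% of I (edgeR adjusted p = 0.242, and 0.00782 with the block).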

How the data were processed

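The deposited file holds raw counts per gene, which the authors produced from RNA-seq reads. The aligner, counter and genome build are not given in the sources used here, and the submitters' processing notes name DESeq2. The deposited counts hold 43769 genes, 17165 without a count in any of the 12 libraries. The authors' tables of their own comparisons (log2 fold changes, p-values and normalized values per library) were not used, nor were their 18 per-library columns, whose names the labels do not explain. Counts were scaled by TMM, filtered with filterByExpr (minimum count 10) and fitted in 1 edgeR quasi-likelihood model of the 4 groups, 3 libraries each (edgeR 4.0.16, limma 3.58.1, R 4.3.3). Tests are two-sided, with Benjamini-Hochberg adjustment over 15828 genes. CPM uses TMM-scaled library sizes, and medians per library add 0.5 CPM. Gene positions, types and 3′ UTRs came from GENCODE 29 (GRCh38) and promoters from RefSeq (GRCh38.p14, 11951 tested genes matched).

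Replicate numbers are shared by the labels. After group means were removed, same-numbered I and DI libraries correlated at 0.552, 0.468 and 0.613, and other-numbered ones at −0.526 to 0.00405, so the numbers were taken to pair the libraries and the block value is given where it changes a call. Libraries of a group differed by more than counting noise (chi-square per gene 19.8 to 85).

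Genes named are the 12 largest changes in each direction among called genes with at least 1 CPM and no overlap, up to 3 per direction and list by p among those called in either fit, the 2 most abundant of each list, and genes the study measured, apart from those said to be chosen later, names left out for room and 2 that are not reported here. The members and lists were chosen with earlier results of these data known. On counts simulated for DI against I, 150 of 200 planted genes were recovered (55 of 100 at a log2 change of 1, 95 of 100 at 2) with 6 false calls. The simulated libraries had no replicate-number or IFNγ effect, and changes were planted only in genes above a minimum level. The figures therefore do not give the error rate of the real libraries. Alternatives changed the scaling, filter, test (DESeq2 1.42.0), libraries in the model, block, threshold and libraries left out.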

Additional observations from a re-analysis of the deposited data

Results flagged for a closer look

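The doxycycline step differed with and without IFNγ for 4 genes by edgeR's interaction test with a block of the replicate number within each doxycycline arm. No gene passed the interaction without that block, where the adjusted p was 1.0 for FN1, RIGI and SAMHD1 and 0.903 for IL18BP. FN1, fibronectin, had an interaction of −1.19 on the log2 scale (edgeR adjusted p = 0.0009): 379, 621 and 487 CPM in C, 595, 1066.7 and 876 CPM in D, 1786, 2985.4 and 3330.1 CPM in I and 1239.9, 2662.5 and 2177.3 CPM in DI. SAMHD1 had −0.81 (edgeR adjusted p = 0.00174), with 65.5, 63.3 and 63.8 CPM in C, 87.4, 59.0 and 69.8 CPM in D, 481, 487 and 399 CPM in I and 330, 255 and 280 CPM in DI. IL18BP had −1.45 (edgeR adjusted p = 0.00375). RIGI, the cytosolic sensor of viral RNA, had −1.73 (edgeR adjusted p = 0.00727), with 1.54, 2.14 and 1.68 CPM in C, 3.43, 5.49 and 3.47 CPM in D, 39.6, 45.4 and 28.0 CPM in I and 28.4, 25.9 and 23.6 CPM in DI. All 4 were lower in DI than in I and higher in D than in C by their group means.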

How the results depend on the processing

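The count of genes called in DI against I moved with most choices. It was 106, and 30 at an adjusted p under 0.01, 452 with DESeq2, 0 with only the 6 I and DI libraries in the model (1508 at an unadjusted p under 0.05; DESeq2 was run on all 12), 1658 with the replicate block, 352 with the block and the 6 libraries (added after seeing the data), and 35 to 96 with 1 library left out, lowest without I replicate 2 or 3. Genes higher numbered 3, 150, 0, 610 and 93 in those same 5 settings, 54 with scaling by library size alone and 3 to 17 with 1 library left out. Genes lower numbered 27, 302, 0, 1048 and 259, and 31 to 85 with 1 library left out. D against C gave 32 at the stricter threshold, 119 without the filter, 644 with DESeq2, 16 with its 6 libraries, 2200 with the block and 42 to 195 with 1 library left out. The interaction gave 1 with DESeq2 and 4 with the block within each arm. ARID1A was −0.45 with DESeq2 (adjusted p = 0.0159) and −0.45 with the replicate block (adjusted p = 0.0111). It was not called with the block and 6 libraries (−0.43, adjusted p = 0.0593), nor in the other settings (adjusted p = 0.08 to 0.294). The mitochondrial mRNA median ran from −2.19 to −1.07 with 1 library left out. The share of lower genes with the word, an alternative added later, was 41.5% with DESeq2, 27.6% with the block, 43.4% with the block and 6 libraries, 72.0% at the stricter threshold and 59.7% to 73.5% with 1 library left out. VEGFA, at 0.11 and not called, turned to −0.24 with the block, −0.33 with the block and 6 libraries, and ran from −1.05 to 0.51 with 1 library left out (below 0 without I replicate 1, I replicate 2 or DI replicate 2). MYCN was 0.064 with library size alone and −0.16 to 0.08 with 1 library left out (above 0 without I replicate 1 or DI replicate 2), and PHOX2A 0.046 and −0.11 to 0.021 (above 0 without I replicate 3). The cell cycle median was 0.055 with library size alone, which moved the median of all genes to 0.085. The medians of the class I, hypoxia, cell cycle, endoplasmic reticulum, stress kinase, mesenchymal, mitochondrial transcription, mitochondrial chaperone and nuclear respiratory chain lists each changed sign without at least 1 of the libraries. Of 33 called genes among those checked one by one, the model of 6 libraries kept 0 and the block lost 0 and added 36. Without any 1 library 13 stayed called: ALDH1L2, ARPP19, BEX1, CCAR1, DNAJB9, GCH1, GNPDA1, MFSD6, MOSPD3, ND6, PKIA, PTGFRN and TRNN. The cause of these moves was not tested.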
